A study of Mus musculus with 26 samples.

Results

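The 48 genes described here encode nuclear subunits of complexes I to IV of the mitochondrial respiratory chain, with the carrier cytochrome c. They were taken by name: a probe counted where its transcript accession maps, through the RefSeq gene table of GRCm38.p6, to a listed subunit, and no measured value was used. Of the 22963 features tested on the arrays, 28 were complex I subunits, 4 were complex II subunits, 6 were complex III subunits, 1 was cytochrome c and 9 were complex IV subunits. All 48 lay above background in all 25 animals.

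Lung RNA came from MutaTMMouse animals, a transgenic mutation-reporter strain, in 5 groups of 5. Their age is given as about 12 weeks. That age is not tied here to the first instillation or to collection, which came 56 days after the last of 4 weekly instillations. NM 401 and Mitsui XNRi-7 are multiwalled carbon nanotubes, and the study examined the lung's response to them. High-dose NM 401 animals received 128 µg per mouse and low-dose NM 401 animals 42.7 µg per mouse, and high-dose and low-dose Mitsui XNRi-7 animals received the same 2 amounts. Nanotubes were suspended in mouse serum and instilled into the trachea once a week on 4 occasions, and lungs were collected 56 days later than the final instillation. The labels do not say whether the amount is per instillation or in all. For the control animals the design text names a vehicle, while the sample labels read olive oil only and the treatment protocol names olive oil given by gavage. Route and carrier may therefore have differed from those of the exposed animals. Sample labels give all animals as female and the design text as male. The animals were individually housed, and nothing in the labels ties a replicate number to a shared day or litter.

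The respiratory chain passes electrons from NADH through complex I, or from succinate through complex II, to ubiquinone, then through complex III and cytochrome c to oxygen at complex IV. Complexes I, III and IV pump protons across the inner mitochondrial membrane, and the gradient drives ATP synthase. Most subunits are nuclear genes; the core subunits encoded by mitochondrial DNA were not analysed here. In lung, alveolar type 2 cells and macrophages are among the cells rich in mitochondria. In whole tissue, a smaller number of cells of a type and less RNA per cell cannot be told apart.

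Each animal's Cy5-labelled RNA was hybridised against a Cy3-labelled universal mouse reference RNA, and every level below is a log2 ratio to that reference. Levels of different genes are not comparable on this scale. Between 45.8 and 62.2% of probes on an array were well above background in the Cy5 channel. The number of animals limits the precision, with a median standard error of 0.073 on the log2 scale for a member's change, against 0.095 over all features. The lung label was borne out by its defining markers: all 10 alveolar type 2 markers, all 8 alveolar type 1 markers on the array and all 8 club and ciliated markers on the array were above background in every animal. Xist, the transcript of the inactive X chromosome, was not above background on either probe in high-dose NM 401 animal 2, which is labelled female, while both Xist probes were above background in the 24 other animals. Y-linked probes did not set that animal apart: Ddx3y and Kdm5d were above background in 0 animals, and Eif2s3y was -1.96 in it, against -2.41 to -0.84 in the others. Control animal 2 stood apart in brown fat markers, with a list mean of 1.79 against -1.03 to 0.07 in the other 4 control animals. High-dose NM 401 animal 2 also stood apart in that list, at 0.82 against -1 to -0.47 in the other 4 animals of its group. Without control animal 2, 9 members rose and 2 fell in high-dose NM 401 lungs, 3 rose and 0 fell in low-dose NM 401, 5 rose and 1 fell in high-dose Mitsui XNRi-7, and 5 rose and 0 fell in low-dose Mitsui XNRi-7 lungs.

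The promoter windows of 4 members that carry the results are shown first, because Cox5a and Sdhd were called higher in all 4 exposures, and Ndufb10 and Ndufa5 lower in both high-dose groups. RefSeq (GRCm38.p6) gives a window of 300 bases, 250 before to 50 after the start, for 38 of the 48 members. Capitals mark matches to motifs of factors known to act on respiratory genes, read on both strands: the strict NRF1 palindrome and a looser form with 1 free base, which also holds every strict match, ERR (TCAAGGTCA), ETS family factors such as GABP (CCGGAAG) and YY1 (AAGATGGCG).
Cox5a, chr9:57520982-57521281, plus strand: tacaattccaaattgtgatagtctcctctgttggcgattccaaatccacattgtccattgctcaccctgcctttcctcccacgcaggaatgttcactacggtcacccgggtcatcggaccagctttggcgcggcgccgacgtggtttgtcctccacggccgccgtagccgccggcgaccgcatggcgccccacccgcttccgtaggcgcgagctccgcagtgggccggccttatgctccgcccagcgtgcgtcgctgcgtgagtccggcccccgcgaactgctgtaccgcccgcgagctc
Sdhd, chr9:50603800-50604099, minus strand: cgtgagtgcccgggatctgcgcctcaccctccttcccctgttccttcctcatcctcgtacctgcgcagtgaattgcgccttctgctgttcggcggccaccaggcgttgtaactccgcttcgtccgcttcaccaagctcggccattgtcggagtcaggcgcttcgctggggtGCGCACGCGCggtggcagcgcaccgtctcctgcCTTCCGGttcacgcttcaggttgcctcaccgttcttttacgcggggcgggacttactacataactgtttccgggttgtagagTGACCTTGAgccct
Ndufb10, chr17:24724374-24724673, minus strand: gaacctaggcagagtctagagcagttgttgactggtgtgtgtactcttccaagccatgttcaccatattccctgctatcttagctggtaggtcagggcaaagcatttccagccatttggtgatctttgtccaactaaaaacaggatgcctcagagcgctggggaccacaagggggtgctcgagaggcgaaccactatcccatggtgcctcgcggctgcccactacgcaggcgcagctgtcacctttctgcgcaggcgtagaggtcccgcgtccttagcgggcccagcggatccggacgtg
Ndufa5, chr6:24527641-24527940, minus strand: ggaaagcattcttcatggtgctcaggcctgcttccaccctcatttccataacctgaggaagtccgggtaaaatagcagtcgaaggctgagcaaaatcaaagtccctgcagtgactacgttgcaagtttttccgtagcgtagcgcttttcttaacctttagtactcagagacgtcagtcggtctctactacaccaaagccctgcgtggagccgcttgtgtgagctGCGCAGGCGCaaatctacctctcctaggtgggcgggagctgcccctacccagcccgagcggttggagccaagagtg

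The Sdhd window held a looser NRF1 match beginning 79 bases before the start, an ETS match 46 bases before it and an ERR match 36 bases after it. The Ndufa5 window held 1 looser NRF1 match, 26 bases before the start. The Cox5a and Ndufb10 windows held none of these letters. Among the 38 members with a window, 8 held the looser NRF1 motif, a share of 21.1%, against 5.19% of 27025 genes with a window. For the ETS motif the share was 21.1% of members against 9.93% of all genes, for YY1 13.2% against 1.64%, for ERR 2.63% against 0.466% and for strict NRF1 5.26% against 1.07%. A match is a string of letters and not a bound site.

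In high-dose NM 401 lungs, 8 of the 48 members rose and 3 fell relative to control lungs, and 37 did not pass the test (limma, Benjamini-Hochberg adjusted p under 0.05 over all 22963 features). That is 22.9% of members, below the 34.8% of all features called in this comparison (18.4% higher and 16.4% lower). The members that rose were Cox5a, Cycs, Cyc1, Cox7b, Sdhc, Sdhd, Ndufa2 and Ndufs3, and those that fell were Ndufb10, Ndufa5 and Ndufv1, all 3 in complex I. Changes of members were small: the log2 change ran from -0.35 to 0.44, its median was 0.05, and no member reached 1.5-fold. The median size of a member's log2 change, whatever its sign, was 0.10 against 0.17 over all features, and the 95% interval of the change lay within 1.5-fold either way for 46 of 48 members, against 74.2% of all features. Members were also much brighter, with a median log2 intensity averaged over both channels of 13.5, against 8.68 over all features. The part of brightness in these differences was not tested. By complex, 2 of 28 members rose and 3 fell in complex I, 2 of 4 rose in complex II, 1 of 6 in complex III and 2 of 9 in complex IV. The shares higher were 7.14% in complex I, 50% in complex II, 16.7% in complex III and 22.2% in complex IV. Of all features 18.4% were higher, and the shares of complexes II, III and IV rest on few genes. Without animal 2 of this group 12 members passed the test, 7 higher and 5 lower, of which 10 were among the 11 called with it; complex I then had 2 higher and 5 lower and complex II 1 higher, and the other complexes had the same counts. Without animal 1 the count was 6, without control animal 5 it was 7, and with the array column as a block it was 7. The split by direction also moved: 4 members rose and 4 fell with the authors' deposited matrix. From the Cy5 channel alone 4 rose and 6 fell. The split over all features moved the same way. Of all features called, 52.9% were higher as reported, 45.6% with the deposited matrix and 45.5% from the Cy5 channel alone.

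In low-dose NM 401 lungs 3 members rose and none fell. That is 6.25% of members against 16.9% of all features called (8.94% higher and 7.98% lower). By unadjusted p under 0.05 there were 10 of 48 members, against 6809 of 22963 features. Without low-dose NM 401 animal 2, control animal 4 or control animal 5 only 1 member passed. High-dose Mitsui XNRi-7 lungs had 4 members higher and 2 lower than control, 12.5% of members against 23.8% of all features (12.7% higher and 11.1% lower). Low-dose Mitsui XNRi-7 lungs had 5 members higher and 1 lower, 12.5% of members against 21% of all features (10.6% higher and 10.4% lower). These 4 comparisons share the same 5 control animals. Over the 4 exposures 11 members were called at least once, 22.9% of members against 40.6% of all features, and 37 were never called. Cox5a and Sdhd were called in all 4, which is 4.17% of members against 11.9% of all features.

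**Figure D1:**
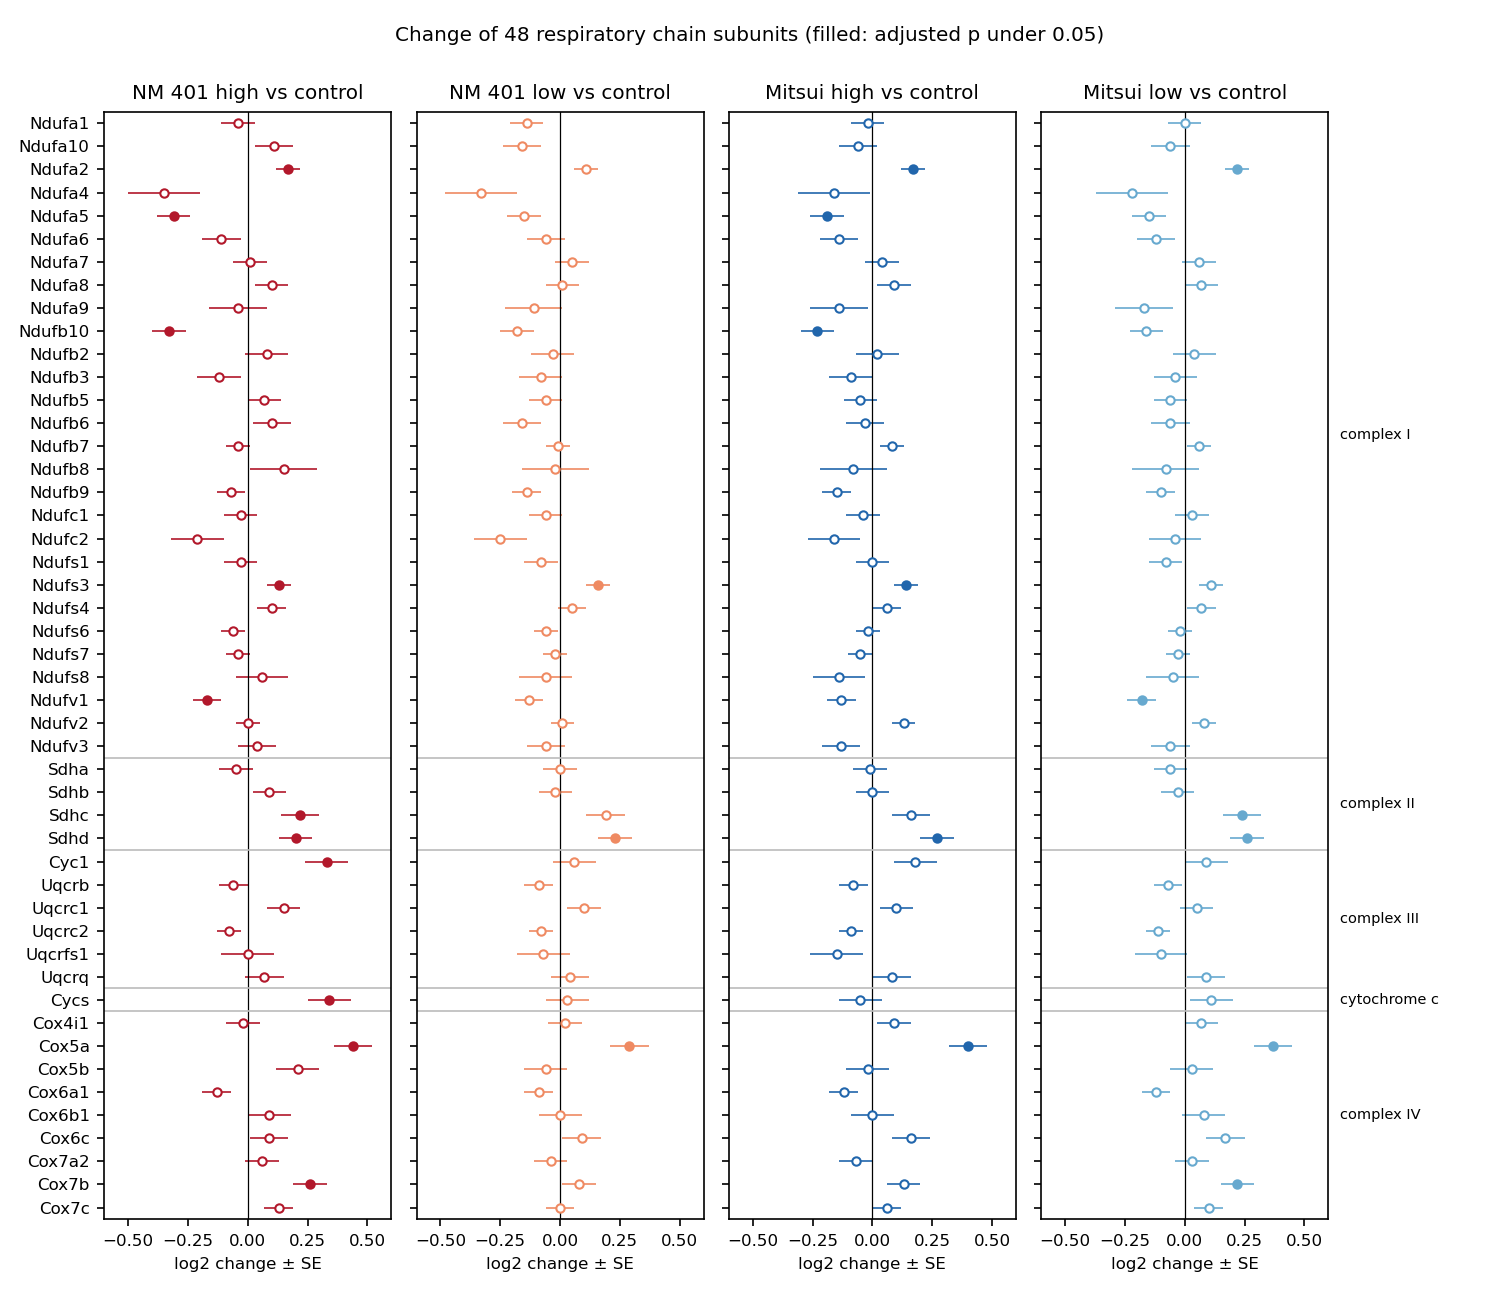
Log2 change of each of the 48 subunits against control (horizontal axis, ± SE, 5 animals a group) in the 4 exposures, grouped by complex, with filled points where the adjusted p is under 0.05. Most points lie within 0.2 of zero, Cox5a stands highest in each panel, and Ndufa4, Ndufa5 and Ndufb10 stand lowest in the high-dose NM 401 panel.

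Complex IV, cytochrome c oxidase, transfers electrons to oxygen, and Cox5a and Cox7b were the members of it that rose in high-dose NM 401 lungs. Cox5a, at chr9:57517328-57532427, encodes a nuclear subunit that takes part in the regulation of the enzyme. This span of the RefSeq gene table begins upstream of the start for which the promoter window is given. Its level was 0.48, 0.22, 0.27, 0.29 and 0.35 in the high-dose NM 401 animals, and 0.13, 0.41, 0.19, 0.02 and 0.12 in the low-dose NM 401 animals. In the Mitsui XNRi-7 groups it was 0.35, 0.15, 0.23, 0.33 and 0.35 at the high dose and 0.18, 0.29, 0.19, 0.31 and 0.27 at the low dose. The control animals had -0.23, 0.15, -0.09, -0.14 and -0.28. Every high-dose NM 401 animal and every Mitsui XNRi-7 animal of both doses lay above every control animal, the closest pair being equal at 0.15 once rounded. In low-dose NM 401 lungs 3 of 5 animals lay below control animal 2. The log2 change was 0.44 ± 0.08 (SE, n = 5 per group; limma adjusted p = 9.06e-05) in high-dose NM 401 lungs and 0.29 ± 0.08 (limma adjusted p = 0.0111) in low-dose NM 401 lungs. In Mitsui XNRi-7 lungs it was 0.40 ± 0.08 (limma adjusted p = 0.00053) at the high dose and 0.37 ± 0.08 (limma adjusted p = 0.00131) at the low dose. As folds these were 1.36 in high-dose NM 401, 1.22 in low-dose NM 401, 1.32 in high-dose Mitsui XNRi-7 and 1.29 in low-dose Mitsui XNRi-7 lungs.

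Cox7b, a small subunit of complex IV encoded on the X chromosome, rose in 2 of the 4 exposures. Its level was 0.18, 0.21, 0.13, 0.02 and 0.21 in high-dose NM 401 animals, against -0.15, -0.02, -0.06, -0.15 and -0.14 in control animals, and these groups did not overlap. Cox7b had a log2 change of 0.26 ± 0.07 (limma adjusted p = 0.00429). In low-dose Mitsui XNRi-7 animals it was 0.06, 0.17, 0.17, 0.06 and 0.13, again all above control, with a log2 change of 0.22 ± 0.07 (limma adjusted p = 0.0201). From the Cy5 channel alone both Cox7b calls were lost (limma adjusted p = 0.0751 for high-dose NM 401 and 0.292 for low-dose Mitsui XNRi-7). The low-dose Mitsui XNRi-7 call was also lost with the authors' deposited matrix (limma adjusted p = 0.112). Cox5b, which holds a zinc site of the enzyme, was -0.25, -0.28, -0.43, -0.33 and -0.21 in high-dose NM 401 animals, against -0.63, -0.27, -0.44, -0.74 and -0.48 in control animals. Its groups overlapped and the log2 change of 0.21 ± 0.09 did not pass the test (limma adjusted p = 0.0611). The other 6 members of complex IV, Cox4i1, Cox6a1, Cox6b1, Cox6c, Cox7a2 and Cox7c, passed the test in no exposure.

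Cytochrome c, encoded by Cycs, carries electrons from complex III to complex IV and, once released from mitochondria, takes part in apoptosis. Its level was -0.39, -0.47, -0.26, -0.43 and -0.29 in high-dose NM 401 animals, and -0.79, -0.66, -0.42, -0.68 and -0.80 in low-dose NM 401 animals. Mitsui XNRi-7 animals had -0.55, -0.79, -1.12, -0.74 and -0.55 at the high dose and -0.57, -0.66, -0.51, -0.56 and -0.66 at the low dose. Control animals had -0.75, -0.57, -0.68, -0.83 and -0.68. The high-dose NM 401 animals lay above all control animals, while the other 3 exposed groups overlapped the control range. The log2 change was 0.34 ± 0.09 in high-dose NM 401 lungs (limma adjusted p = 0.00512), and 0.03 in low-dose NM 401, -0.05 in high-dose Mitsui XNRi-7 and 0.11 in low-dose Mitsui XNRi-7 lungs, none of which passed the test. A second, dimmer Cycs probe gave 0.01 ± 0.11 in high-dose NM 401 lungs and did not pass the test, so the 2 probes disagree. With the mean of both probes the log2 change was 0.17 (limma adjusted p = 0.172).

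Complex III, cytochrome bc1, had 1 of 6 members higher in high-dose NM 401 lungs and none called in the other exposures. Cyc1 encodes cytochrome c1, the haem subunit that hands electrons to cytochrome c. Its level was -0.68, -0.84, -0.90, -1.04 and -0.73 in high-dose NM 401 animals, against -1.18, -1.06, -0.96, -1.49 and -1.15 in control animals, and only NM 401 animal 4 fell within the control range. Cyc1 had a log2 change of 0.33 ± 0.09 (limma adjusted p = 0.00623). The core proteins Uqcrc1 and Uqcrc2 did not pass, with log2 changes of 0.15 ± 0.07 (limma adjusted p = 0.12) and -0.08 ± 0.05 (limma adjusted p = 0.214). Uqcrc1 was -0.20, -0.32, -0.35, -0.48 and -0.34 in high-dose NM 401 animals, against -0.50, -0.31, -0.34, -0.77 and -0.53 in control animals. Uqcrc2 was -0.07, -0.04, -0.19, -0.13 and -0.07 in high-dose NM 401 animals, against -0.11, 0.06, 0.02, -0.05 and -0.02 in control animals. For both core proteins the groups overlapped.

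Complex II, succinate dehydrogenase, also belongs to the citric acid cycle, and its 2 membrane anchors Sdhc and Sdhd rose in high-dose NM 401 lungs while its catalytic subunits Sdha and Sdhb did not pass the test in any exposure. Sdhd, at chr9:50596340-50603849, was 0.08, -0.04, -0.31, -0.34 and -0.18 in high-dose NM 401 animals and -0.12, -0.05, -0.12, -0.20 and -0.16 in low-dose NM 401 animals. Mitsui XNRi-7 animals had -0.06, -0.19, -0.12, -0.07 and -0.02 at the high dose and -0.15, -0.01, -0.20, -0.04 and -0.14 at the low dose, and control animals had -0.37, -0.23, -0.34, -0.46 and -0.43. The low-dose NM 401 group and both Mitsui XNRi-7 groups lay wholly above control, and the high-dose NM 401 group overlapped it. The log2 change was 0.20 ± 0.07 (limma adjusted p = 0.0251) in high-dose NM 401 lungs, 0.23 ± 0.07 (limma adjusted p = 0.023) in low-dose NM 401 lungs, 0.27 ± 0.07 (limma adjusted p = 0.00653) in high-dose Mitsui XNRi-7 lungs and 0.26 ± 0.07 (limma adjusted p = 0.00992) in low-dose Mitsui XNRi-7 lungs. From the Cy5 channel alone, quantile normalised, all 4 calls were lost: the high-dose NM 401 value was -0.06 (limma adjusted p = 0.767), opposite in sign, and the others were 0.19 (limma adjusted p = 0.343) in low-dose NM 401, 0.23 (limma adjusted p = 0.213) in high-dose Mitsui XNRi-7 and 0.18 (limma adjusted p = 0.348) in low-dose Mitsui XNRi-7 lungs. The high-dose NM 401 call was also lost with the array column as a block (limma adjusted p = 0.0966), with the authors' deposited matrix (limma adjusted p = 0.0533), and without NM 401 animal 1 or 2 or control animal 4 or 5. In low-dose NM 401 lungs it was lost without NM 401 animal 2 or control animal 4 or 5.

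Sdhc was 0.10, -0.25, 0.15, -0.10 and 0.12 in high-dose NM 401 animals and -0.11, -0.08, 0.02, 0.18 and 0.10 in low-dose Mitsui XNRi-7 animals, against -0.24, -0.27, -0.16, -0.23 and -0.21 in control animals. All low-dose Mitsui XNRi-7 animals lay above control, and NM 401 animal 2 lay among the control animals. For Sdhc the log2 change was 0.22 ± 0.08 (limma adjusted p = 0.0426) in high-dose NM 401 lungs and 0.24 ± 0.08 (limma adjusted p = 0.0414) in low-dose Mitsui XNRi-7 lungs. The first call ended without NM 401 animal 1, 3 or 5 or control animal 1, 2, 4 or 5, and the second without Mitsui XNRi-7 animal 3, 4 or 5 or the same control animals. A second Sdhc probe gave 0.09 in high-dose NM 401 lungs and 0.12 in low-dose Mitsui XNRi-7 lungs, and neither passed the test. With the authors' deposited matrix both Sdhc calls were lost (limma adjusted p = 0.0726 for high-dose NM 401 and 0.0562 for low-dose Mitsui XNRi-7), and the second also with the array column as a block (limma adjusted p = 0.101). Sdhb, the iron-sulphur subunit, was 0.34, 0.38, 0.44, 0.34 and 0.53 in high-dose NM 401 animals, against 0.42, 0.52, 0.22, 0.12 and 0.31 in control animals, with a log2 change of 0.09 ± 0.07 (limma adjusted p = 0.411).

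Complex I, NADH dehydrogenase, had 2 of 28 members higher and 3 lower in high-dose NM 401 lungs. Ndufb10 and Ndufa5 are accessory subunits, of the membrane arm and of the matrix arm, and Ndufv1 carries the flavin that accepts electrons from NADH. Ndufb10, at chr17:24722060-24724423, was 0.43, 0.49, 0.19, 0.43 and 0.22 in high-dose NM 401 animals and 0.47, 0.48, 0.43, 0.43 and 0.46 in high-dose Mitsui XNRi-7 animals. Control animals had 0.75, 0.76, 0.61, 0.62 and 0.68, and both high-dose groups lay wholly below them. For Ndufb10 the log2 change was -0.33 ± 0.07 (limma adjusted p = 0.000426) in high-dose NM 401 lungs and -0.23 ± 0.07 (limma adjusted p = 0.0135) in high-dose Mitsui XNRi-7 lungs. At the low doses it was -0.18 ± 0.07 for NM 401 and -0.16 ± 0.07 for Mitsui XNRi-7, neither past the test.

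Ndufa5, at chr6:24518662-24527690, was 0.14, 0.07, -0.08, 0.04 and -0.06 in high-dose NM 401 animals and 0.12, 0.06, 0.35, 0.14 and 0.04 in high-dose Mitsui XNRi-7 animals, against 0.32, 0.50, 0.39, 0.27 and 0.20 in control animals. The high-dose NM 401 animals lay wholly below control; Mitsui XNRi-7 animal 3 fell within the control range. For Ndufa5 the log2 change was -0.31 ± 0.07 (limma adjusted p = 0.000847) in high-dose NM 401 lungs and -0.19 ± 0.07 (limma adjusted p = 0.0398) in high-dose Mitsui XNRi-7 lungs. The high-dose Mitsui XNRi-7 call ended without Mitsui XNRi-7 animal 1, 2, 4 or 5 or control animal 1, 2 or 3. At both low doses the used probe gave -0.15 ± 0.07 and did not pass the test. A second Ndufa5 probe gave -0.25 ± 0.07 in high-dose NM 401 lungs and -0.24 ± 0.07 in high-dose Mitsui XNRi-7 lungs. In low-dose lungs that second probe gave -0.25 ± 0.07 for NM 401 (limma adjusted p = 0.0164 over all kept probes). For low-dose Mitsui XNRi-7 it gave -0.20 ± 0.07 (limma adjusted p = 0.0377 over all kept probes). Ndufv1 was -0.22, -0.11, -0.29, -0.21 and -0.21 in high-dose NM 401 animals and -0.19, -0.20, -0.15, -0.30 and -0.22 in low-dose Mitsui XNRi-7 animals, against -0.06, 0.11, -0.14, -0.10 and 0.01 in control animals. Its log2 change was -0.17 ± 0.06 (limma adjusted p = 0.0365) in high-dose NM 401 lungs and -0.18 ± 0.06 (limma adjusted p = 0.0461) in low-dose Mitsui XNRi-7 lungs. The first Ndufv1 call ended without NM 401 animal 1, 3, 4 or 5 or control animal 2 or 5, and the second without Mitsui XNRi-7 animal 1, 2, 4 or 5 or control animal 1, 2 or 5. With the array column as a block both were lost (limma adjusted p = 0.206 for high-dose NM 401 and 0.122 for low-dose Mitsui XNRi-7).

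Ndufa2 and Ndufs3 rose in 3 exposures each. Ndufa2, an accessory subunit of the matrix arm, was 0.77, 0.69, 0.56, 0.56 and 0.59 in high-dose NM 401 animals, 0.64, 0.60, 0.66, 0.53 and 0.76 in high-dose Mitsui XNRi-7 animals and 0.67, 0.77, 0.63, 0.70 and 0.63 in low-dose Mitsui XNRi-7 animals. Control animals had 0.49, 0.46, 0.51, 0.41 and 0.46, below every animal of those 3 groups. Ndufa2 had a log2 change of 0.17 ± 0.05 (limma adjusted p = 0.0159) in high-dose NM 401 lungs, 0.17 ± 0.05 (limma adjusted p = 0.0206) in high-dose Mitsui XNRi-7 lungs and 0.22 ± 0.05 (limma adjusted p = 0.0054) in low-dose Mitsui XNRi-7 lungs. The first call ended without NM 401 animal 1, and the second without Mitsui XNRi-7 animal 5 or control animal 4. From the Cy5 channel alone all 3 Ndufa2 calls were lost (limma adjusted p = 0.289 for high-dose NM 401, 0.145 for high-dose and 0.0516 for low-dose Mitsui XNRi-7). The authors' deposited matrix lost both high-dose calls (limma adjusted p = 0.089 for NM 401 and 0.0864 for Mitsui XNRi-7), and the array column as a block lost the high-dose NM 401 call (limma adjusted p = 0.0502).

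Ndufs3, a core subunit of the matrix arm, was 0.01, -0.10, 0.05, 0.04 and 0.06 in high-dose NM 401 animals, -0.02, 0.07, 0.06, 0.07 and 0.01 in low-dose NM 401 animals and 0, -0.01, 0.11, 0.07 and -0.04 in high-dose Mitsui XNRi-7 animals. Control animals had -0.15, 0.03, -0.12, -0.16 and -0.19; control animal 2, at 0.03, lay among the exposed animals. Ndufs3 had a log2 change of 0.13 ± 0.05 (limma adjusted p = 0.0477) in high-dose NM 401 lungs, 0.16 ± 0.05 (limma adjusted p = 0.0342) in low-dose NM 401 lungs and 0.14 ± 0.05 (limma adjusted p = 0.0428) in high-dose Mitsui XNRi-7 lungs. Leaving out any 1 of control animals 1, 3, 4 and 5 ended each of these calls, as did NM 401 animal 1, 3, 4 or 5 at the high dose, NM 401 animal 2, 3 or 4 at the low dose and Mitsui XNRi-7 animal 1, 3 or 4. All 3 were also lost with the array column as a block (limma adjusted p = 0.218 for high-dose NM 401, 0.0627 for low-dose NM 401 and 0.0862 for high-dose Mitsui XNRi-7), with the authors' deposited matrix and from the Cy5 channel alone. Ndufa4, which is now assigned to complex IV although named for complex I, was -0.45, 0.26, -0.23, -0.10 and -0.12 in high-dose NM 401 animals, against 0.28, 0.42, -0.14, 0.32 and 0.25 in control animals. Its groups overlapped, and the log2 change of -0.35 ± 0.15 did not pass the test (limma adjusted p = 0.0737).

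**Figure D2:**
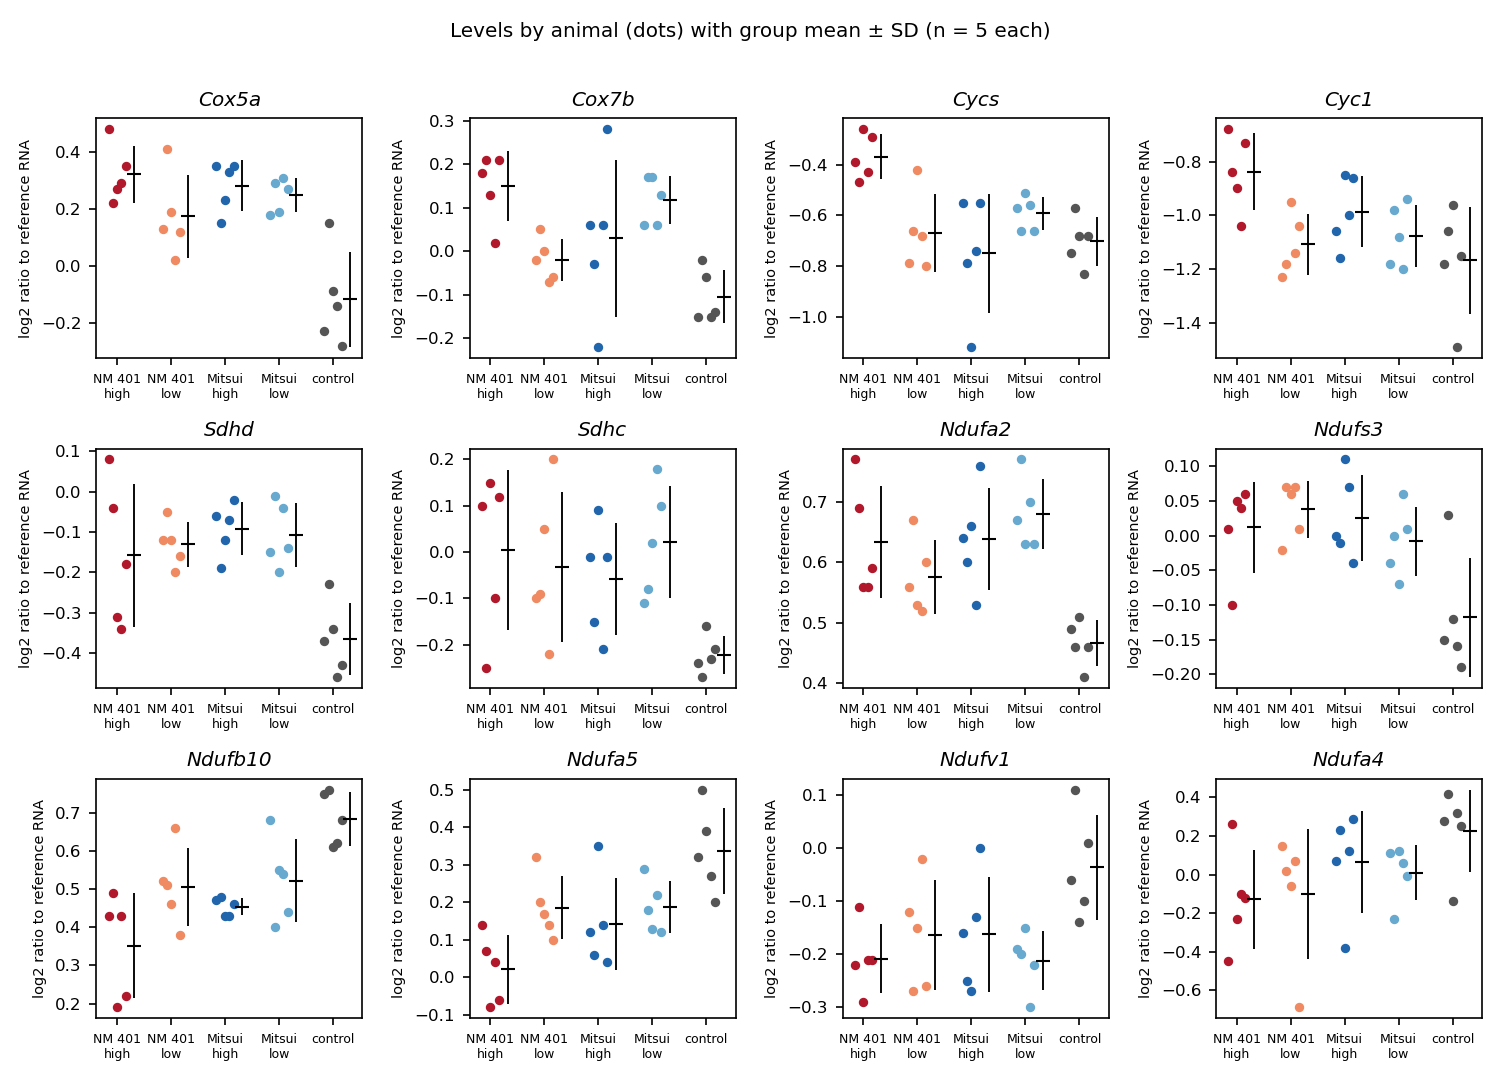
Log2 ratio to the reference RNA (vertical axis, scaled by panel) in each of the 25 animals for 12 subunits, with the group mean ± SD beside the dots. Cox5a and Ndufa2 are high in the exposed groups, and Cycs stands apart in the high-dose NM 401 group alone with the probe used. Ndufb10 and Ndufa5 have means below control in every exposed group, and with the probes used they passed the test in the high-dose groups.

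No member was called in either dose step. Between high-dose and low-dose NM 401 lungs 0 of 48 members passed the limma test, against 3.78% of all features. At unadjusted p under 0.05 there were 9 members, against 4201 of 22963 features. Between the Mitsui XNRi-7 doses 0 members passed, against 0% of all features. At unadjusted p under 0.05 that step had 0 members, against 1245 of 22963 features. The smallest p in the NM 401 dose step belonged to Cycs, with a log2 difference of 0.30 ± 0.09 (limma adjusted p = 0.0602), followed by Ndufa10 at 0.27 ± 0.08 (limma adjusted p = 0.071) and Ndufb6 at 0.26 ± 0.08 (limma adjusted p = 0.0803). Ndufa10, an accessory subunit of complex I, was -0.82, -0.85, -1, -1.08 and -0.79 in high-dose NM 401 animals, against -1.16, -1.29, -1.02, -1.25 and -1.16 in low-dose NM 401 animals. Ndufb6, a membrane-arm subunit, was -0.55, -0.43, -0.76, -0.66 and -0.46 in high-dose NM 401 animals, against -0.87, -0.76, -0.55, -0.94 and -1.06 in low-dose NM 401 animals. For both subunits the 2 dose groups overlapped. With the slide as a block 4 members passed in the NM 401 dose step, all of them higher at the high dose, and without high-dose NM 401 animal 2 there was 1. In the Mitsui XNRi-7 step Cycs, Cox7a2 and Cox7b had the smallest p, with log2 differences (high minus low dose) of -0.16 ± 0.09 for Cycs, -0.10 ± 0.07 for Cox7a2 and -0.09 ± 0.07 for Cox7b.

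Between the 2 nanotubes at the high dose, Cycs was the single member called, 2.08% of members against 0.788% of all features, with a log2 difference of 0.38 ± 0.09 (NM 401 minus Mitsui XNRi-7, limma adjusted p = 0.0459). The call lay at the threshold: it was lost without NM 401 animal 1, 3, 4 or 5 or Mitsui XNRi-7 animal 2, 3 or 4, and in 9 of 19 other settings. At the low dose 0 members passed the limma test, against 0% of all features. At unadjusted p under 0.05 there were 0 members, against 1285 of 22963 features. No member passed the test of the material by dose interaction, against 0.0348% of all features called by limma. At unadjusted p under 0.05 the interaction had 4 of 48 members, against 2921 of 22963 features.

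Within slides the called members kept their sign in every comparison that a slide allows, except Ndufs3 in low-dose NM 401 lungs on slide 2, where the difference was 0. These members were called on the same arrays, so their sign within slides is not an independent test. On slide 3 high-dose NM 401 has 1 array against 1 control array. High-dose NM 401 has no array on slide 2. The direction of several members depends on the intensity-dependent dye correction: with median centring in place of loess, the median change of members in high-dose NM 401 lungs was 0.32 against 0.17 for all features, and it was -0.22 against -0.11 in low-dose NM 401, -0.23 against -0.13 in high-dose Mitsui XNRi-7 and -0.26 against -0.14 in low-dose Mitsui XNRi-7 lungs. No member was called under that scaling. Cox5a was positive under it in all 4 exposures, at 0.70 in high-dose NM 401, 0.08 in low-dose NM 401, 0.15 in high-dose Mitsui XNRi-7 and 0.09 in low-dose Mitsui XNRi-7 lungs.

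Members also varied together among animals of the same group. After removing group means, the 1128 pairs of members had a median correlation of 0.23 over the 25 animals, from -0.84 to 0.86, and 800 pairs were positive; the animals share slides and the values share the dye correction. Ndufb6 followed the mean of the other members most closely, with r = 0.78, and Sdhc least, with r = -0.35. The features whose residuals were most like the members' mean were an unnamed probe for Y08702 (r = 0.79), Nudt19 (r = 0.78), the unnamed features NAP028297-1 (r = 0.77) and A_55_P2042729 (r = 0.77), and Mdh1 (r = 0.76), over 25 animals. Mdh1 encodes the cytosolic malate dehydrogenase. The mean of the ATP synthase list had r = 0.92 with the members' mean, and the brown fat marker mean had r = 0.59, which was 0.39 without the 2 farthest animals.

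Other genes of energy metabolism were read from lists. In high-dose NM 401 lungs 18.4% of all features were called higher and 16.4% lower. The list and marker counts for that group, here and below, are to be read beside these shares. ATP synthase, the enzyme driven by the proton gradient, had 2 of 15 tested subunits higher and none lower in high-dose NM 401 lungs, Atp5pb at a log2 change of 0.39 ± 0.07 and Atp5c1 at 0.30 ± 0.06. Chain assembly factors had 7 of 38 higher and 1 lower, among them Sdhaf1 at 0.24 ± 0.07 and Foxred1 at 0.27 ± 0.08, with Ecsit at -0.20 ± 0.06. Citric acid cycle and pyruvate dehydrogenase genes had none of 19 higher and 2 lower, Dlat at -0.28 ± 0.08 and Pdha1 at -0.25 ± 0.10. Mitochondrial ribosomal proteins had 7 of 38 higher and 3 lower. For this list and for the assembly factors the share higher was near that of all features, and for ATP synthase it was below. A further 13 chain subunits outside the 48 had none higher and 1 lower, Ndufs5 at -0.15 ± 0.05. Of 14 regulators of mitochondrial gene expression 1 rose, 1 fell and 12 did not pass the test, with a list median of -0.02. Nrf1 fell, at -0.36 ± 0.07 (limma adjusted p = 0.000172), and Esrra rose, at 0.32 ± 0.08 (limma adjusted p = 0.002).

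In the glycolysis list 12 of 18 genes rose and 1 fell in high-dose NM 401 lungs, with a list median of 0.34 against 0.05 for the members and 0 for all features. Hk3, a hexokinase of myeloid cells, had a log2 change of 3.34 ± 0.24 (limma adjusted p = 8.64e-10), Slc16a3, a lactate exporter, 0.98 ± 0.12 and Pgam1, phosphoglycerate mutase, 0.90 ± 0.10. Glycolysis genes that rose numbered 4 in low-dose NM 401, 9 in high-dose Mitsui XNRi-7 and 7 in low-dose Mitsui XNRi-7 lungs, and 1 fell in each. Of all features 8.94%, 12.7% and 10.6% were called higher in these groups, in the same order. Macrophage markers moved the same way: 8 of 11 rose and 1 fell in high-dose NM 401 lungs, and the list mean was 0.76 to 1.24 in high-dose NM 401 animals, against -0.13 to 0.11 in control animals. That mean was 0.51 to 1.01 in low-dose NM 401, 0.71 to 1.02 in high-dose Mitsui XNRi-7 and 0.84 to 0.98 in low-dose Mitsui XNRi-7 animals. Alveolar type 2 markers also stood higher, at 0.13 to 0.49 in high-dose NM 401 animals against -0.18 to 0.11 in control animals, and 5 of 10 rose. Of 8 alveolar type 1 markers 6 fell and 1 rose, of 10 endothelial markers 6 fell and 0 rose, and of 10 fibroblast or smooth muscle markers 6 fell and 1 rose. Without high-dose NM 401 animal 2 the glycolysis, macrophage, alveolar type 1, endothelial and fibroblast counts were the same and alveolar type 2 had 4 higher, in a fit chosen after seeing the data. Among 11 immediate early and heat shock genes that respond to tissue handling, 5 fell and 1 rose in high-dose NM 401 lungs, with log2 changes of -1.40 for Dusp1, -1.26 for Jun and 2.29 for Atf3. In the other exposures 1 of these genes rose in each, and 5 fell in low-dose NM 401, 4 in high-dose Mitsui XNRi-7 and 5 in low-dose Mitsui XNRi-7 lungs. The part of the changes in cell markers and handling genes in the members' values was not tested.

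**Figure D3:**
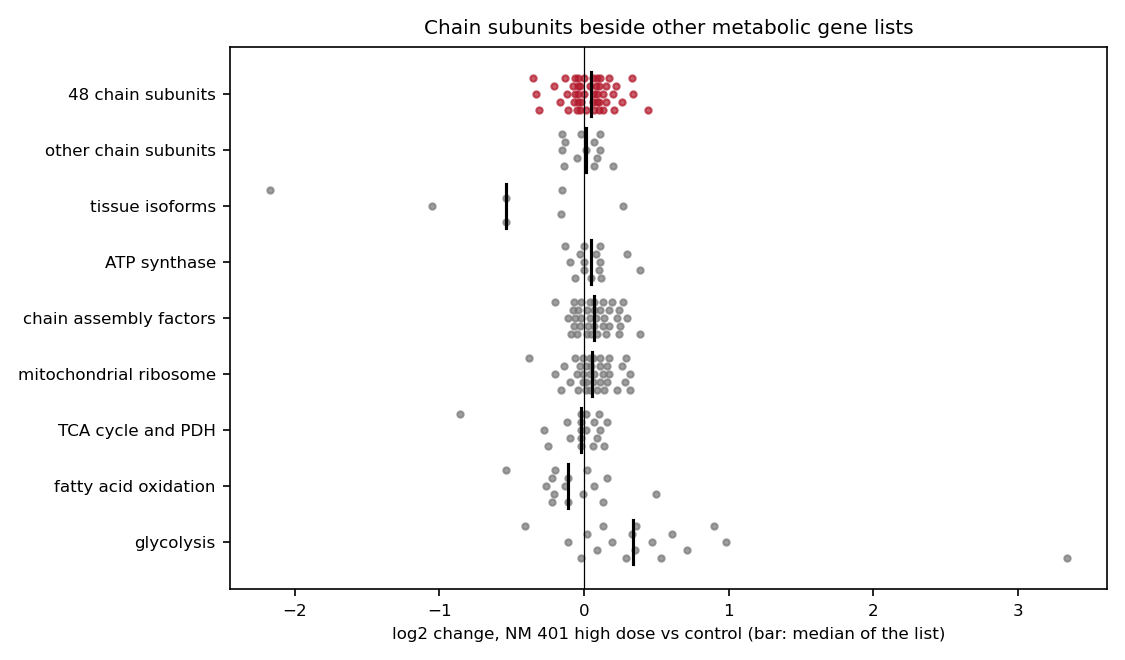
Log2 change in high-dose NM 401 lungs against control (horizontal axis) of each gene in 9 lists, with a bar at the list median. The 48 chain subunits lie between -0.35 and 0.44, glycolysis genes reach 3.34 and the tissue isoform Cox8b lies at -2.17.

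From a list of 10 isoforms and relatives of chain subunits, 7 could be tested. Of these 7 genes, 4 fell in all 4 exposures and 3 passed the test in none. In high-dose NM 401 lungs each of the 4 fell by more than any of the 48 members, and the 4 calls held without animal 2. They are Ndufa4l2 and Cox4i2, which are known for low-oxygen or vascular expression, and Cox8b and Cox7a1, which are known from heart, skeletal muscle and brown fat. Ndufa4l2 was 1.83, 1.91, 1.69, 1.98 and 2.06 in high-dose NM 401 animals, against 2.41, 2.38, 2.42, 2.62 and 2.37 in control animals. Its log2 change was -0.54 ± 0.08 (limma adjusted p = 2.19e-05), and it was -0.38 in low-dose NM 401, -0.41 in high-dose Mitsui XNRi-7 and -0.47 in low-dose Mitsui XNRi-7 lungs. Cox4i2 was 1.41, 1.23, 1.22, 1.43 and 1.38 in high-dose NM 401 animals, against 1.71, 1.87, 2.01, 1.96 and 1.83 in control animals, with a log2 change of -0.54 ± 0.09 (limma adjusted p = 6.08e-05). For both genes the 2 groups did not overlap. Several marker lists were lower alongside them. List means were -0.73 to -0.46 in high-dose NM 401 animals and -0.10 to 0.08 in control animals for endothelial markers, -0.87 to -0.37 in high-dose NM 401 animals and -0.26 to 0.26 in control animals for fibroblast or smooth muscle markers, and -0.69 to -0.34 in high-dose NM 401 animals and -0.21 to 0.19 in control animals for alveolar type 1 markers. After removing group means, over 25 animals that share slides, Cox4i2 had r = 0.38 with the endothelial mean, 0.56 with the fibroblast mean and 0.51 with the alveolar type 1 mean, and without the 2 farthest animals of each list r was 0.56 for endothelial, 0.54 for fibroblast and 0.55 for alveolar type 1 markers. The part of these cells in both isoforms was not tested.

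Cox8b was 1.16, 2.54, 1.08, 2.40 and 1.61 in high-dose NM 401 animals, against 4.10, 5.96, 3.76, 3.20 and 2.62 in control animals, and the groups did not overlap. The log2 change was -2.17 ± 0.43 (limma adjusted p = 0.000327), and without 1 animal at a time it stayed between -2.49 and -1.66. Cox7a1 was -0.40, -0.41, -0.69, -0.08 and -0.29 in high-dose NM 401 animals, against 0.81, 1.40, 1.02, 0.07 and 0.07 in control animals, with a log2 change of -1.05 ± 0.24 (limma adjusted p = 0.00156). In low-dose Mitsui XNRi-7 lungs its change of -0.74 ± 0.24 (limma adjusted p = 0.033) was lost without Mitsui XNRi-7 animal 2, 3 or 4 or control animal 1, 2 or 3. The 3 highest control animals for Cox7a1 were those with the highest cardiac marker means, 0.48, 0.75 and 0.77, while the other 2 control animals had -1.02 and -0.98. Cardiac marker means were -1.47 to 0.09 in high-dose NM 401 animals, where 2 of 12 markers fell and none rose. Control animal 2, the highest for Cox8b, also had the highest brown fat marker mean, of which list Cox8b is itself a gene. The part of heart or brown fat RNA in these isoforms was not tested.

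**Figure D4:**
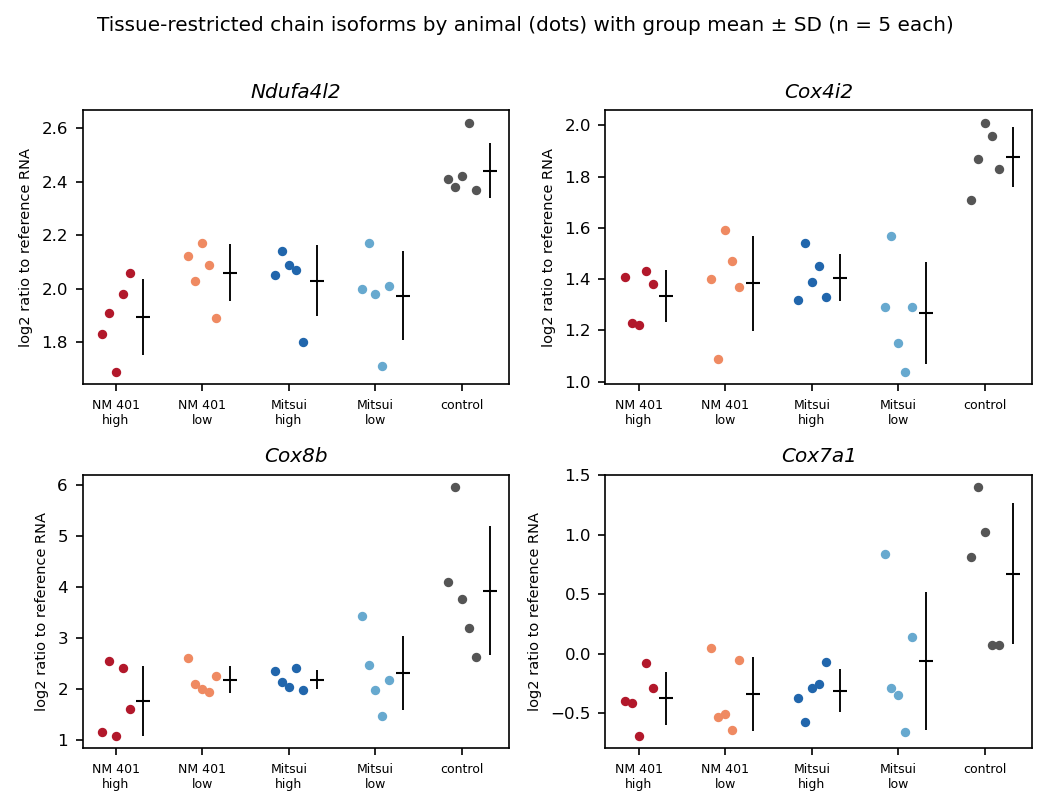
Log2 ratio to the reference RNA (vertical axis, scaled by panel) of 4 tissue-restricted chain isoforms in each of the 25 animals, with the group mean ± SD. Exposed animals lie below the controls for Ndufa4l2 and Cox4i2, and control animal 2 is the highest of all for Cox8b, at 5.96.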

How the data were processed

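Lung RNA of 25 animals was read on 26 2-colour Agilent arrays on 4 slides; low-dose Mitsui XNRi-7 animal 5 was hybridised on 2 arrays, averaged to 1 value. The authors deposited scanner intensity values made with Agilent Feature Extraction 11.0.1.1, per the file headers, which also hold Feature Extraction's log10 ratios. The authors' deposited matrix holds log2 ratios of the same arrays (per-column medians -0.04 to -0.018; r = 0.875 to 0.909 with the scanner ratios), whose normalization is not given in the sources used here. No grid or genome coordinate of the arrays was used.

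Median signals were background corrected (normexp, offset 50) and loess normalised within arrays (limma 3.58.1, R 4.3.3), without control spots and outlier flags. Probes entered the test if their Cy5 signal exceeded background in 4 or more animals of any 1 group; the brightest probe stood for its gene (30481 probes kept, 22963 features, 14851 with a symbol). One mean per group was fitted over all 5 groups, with empirical Bayes on 20 residual degrees of freedom and Benjamini-Hochberg adjustment over all features; the threshold was 0.05. On simulated data 8% of features changed by 0.2, 50% of those changed by 0.4 and 94% of those changed by 1 (log2) were called in the high-dose NM 401 comparison. The simulation changed only 50 of 22963 features at each size, while 34.8% of features were called in the data. Its adjusted threshold was therefore stricter, and it used the spread of all features rather than of members. These rates do not give the power for members in the data. The members, lists and tests were chosen with earlier results of these data known. Members given by animal were the 6, 3, 3 and 3 with the smallest p in complexes I, II, III and IV in high-dose NM 401 lungs, Cycs, members called against the direction of their complex, up to 6 called members in the other comparisons, or the 3 smallest p, and up to 3 called genes of each list. P-values measure the spread between these animals.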

Additional observations from a re-analysis of the deposited data

Results flagged for a closer look

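Among 115 groups of 5 animals checked over 23 genes, 6 held 1 animal far from the other 4 by Dixon's 95% critical value, which by its definition about 1 in 20 groups would pass by chance. Ndufa4 was -0.69 in low-dose NM 401 animal 5, Ndufa10 was -1.32 in high-dose Mitsui XNRi-7 animal 2, Cox5b was -0.58 in low-dose Mitsui XNRi-7 animal 4 and Cox7a2 was 0 in control animal 1. Ndufa4l2, a tissue-restricted isoform, was 1.80 in high-dose Mitsui XNRi-7 animal 5 and 2.62 in control animal 4.

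Cycs, encoding cytochrome c, differed between the 2 nanotubes at the high dose, by 0.38 on the log2 scale (NM 401 minus Mitsui XNRi-7, limma adjusted p = 0.0459).

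Probes that were not used to stand for their gene gave calls over all 30481 kept probes that the used probe did not. The second Ndufa5 probe was lower by a log2 change of -0.25 in low-dose NM 401 and -0.20 in low-dose Mitsui XNRi-7 lungs. The second Ndufv3 probe gave -0.29 in high-dose and -0.26 in low-dose Mitsui XNRi-7 lungs. The second Uqcrq probe gave 0.21 in high-dose NM 401 and 0.23 in low-dose Mitsui XNRi-7 lungs.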

How the results depend on the processing

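The count of members called kept within 1.5 times under most settings. In high-dose NM 401 lungs it was 11, 0 with median centring, 7 with the array column as a block, 6 with only the groups compared, and 6 to 12 without 1 animal. For low-dose NM 401 it was 3, with 0, 5 with Feature Extraction log ratios, 5 with the slide as a block or a random block, 1 with only the groups compared, and 1 to 3 without 1 animal. High-dose Mitsui XNRi-7 had 6, with 0 by median centring, 3 by Cy5 alone, 3 by only the groups compared, and 4 to 6 without 1 animal. Low-dose Mitsui XNRi-7 had 6, 0 by median centring, and 4 to 6 without 1 animal. In the NM 401 dose step it was 0, against 3 (Feature Extraction), 4 (slide as a block), 4 (random block), 2 (array weights), 3 (Cy5 alone) and 0 to 2 without 1 animal. Between the nanotubes at the high dose 1 became 0 with offset 0, median centring, no filter, the mean of all probes, Feature Extraction ratios, the array column block, the replicate block, 1 array of the repeated animal and only the groups compared, 2 with the slide block and 2 with Cy5 alone, and 0 to 1 without 1 animal. The Mitsui XNRi-7 dose step, the low-dose nanotube comparison and the interaction stayed at 0 without 1 animal. Median centring also lowered the calls over all features, to 953 higher and 114 lower in high-dose NM 401 lungs. The split by direction was less stable. With the authors' deposited matrix 4 members were higher and 4 lower in high-dose NM 401, and 2 and 2 in low-dose NM 401. That matrix gave 2 and 2 in high-dose and 3 and 4 in low-dose Mitsui XNRi-7 lungs. Cy5 alone gave 4 and 6, 1 and 3, 1 and 2, and 1 and 3 in the same order. Feature Extraction ratios gave 7 and 3, 3 and 2, 4 and 2, and 5 and 4. With no background correction the split of members was as reported. Over all features the split moved as well. In high-dose NM 401 lungs 52.9% of the features called were higher as reported. That share was 45.6% with the authors' deposited matrix, 45.5% with Cy5 alone and 49.4% with Feature Extraction ratios.

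The replicate block moved no other count beyond 1.5 times: it gave 9 members in high-dose NM 401, 2 in low-dose NM 401, 5 in high-dose Mitsui XNRi-7 and 5 in low-dose Mitsui XNRi-7 lungs. Among single members it ended, beside the Cycs call between the nanotubes, those of Ndufv1 in high-dose NM 401 (limma adjusted p = 0.0543) and low-dose Mitsui XNRi-7 (0.0674) and of Ndufs3 in high-dose NM 401 (0.0663), low-dose NM 401 (0.0503) and high-dose Mitsui XNRi-7 lungs (0.0608). The labels pair no animals: same-numbered animals of different groups had residual correlations of -0.38 to 0.41, over 0.1 in 12 of 50 pairs, against 53 of 200 pairs with different numbers. Median centring turned the sign of Ndufa5 (0.01), Ndufv1 (0.14) and Uqcrc2 (0.21) in high-dose NM 401, Ndufs3 (-0.03) in low-dose NM 401, Ndufa2 (-0.06) and Ndufs3 (-0.07) in high-dose Mitsui XNRi-7, and Ndufa2 (-0.06), Cox7b (-0.04) and Sdhc (-0.01) in low-dose Mitsui XNRi-7 lungs. Cy5 alone turned Sdhd in high-dose NM 401 (-0.06). Within slides Ndufs3 was 0 on slide 2 in low-dose NM 401, Ndufb6 was -0.01 on slide 4 in the NM 401 dose step, Cox7a2 was 0.02 on slides 1 and 2 and Cox7b 0.17 on slide 1 in the Mitsui XNRi-7 step, and Cox7a1 was 0.09 on slide 4 in low-dose Mitsui XNRi-7. The cause was not tested. Cox8b lost its call with Feature Extraction ratios in low-dose NM 401 (-1.43) and in high-dose (-1.49) and low-dose (-1.28) Mitsui XNRi-7 lungs.

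Limits: with 5 animals a group the median standard error of a member's change was 0.073 on the log2 scale, and the route and carrier of the control animals cannot be told apart from exposure. No protein, enzyme activity or oxygen use was measured.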

Other observations

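A second, dim Cox7c probe, chosen for mention after its values were seen, read 1.70, 1.82, 1.55, 1.68 and 1.88 in high-dose NM 401 animals, against -1.59, 1.86, 1.60, 1.79 and 1.58 in control animals. Its log2 change of 0.68 ± 0.39 did not pass the test (limma adjusted p = 0.203 over all kept probes), and control animal 1 alone lay low. The brighter probe used for Cox7c gave 0.13 ± 0.06.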
